A study of Mus musculus with 8 samples.

Results

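The comparison described here set testis from male mice given lipopolysaccharide (LPS) followed by dehydroepiandrosterone (DHEA) and Nb23-bi (the group LPS+DHEA+Nb) against testis from mice given vehicle (CTRL). It asked which genes were still changed after both agents. It rests on 4 of the 8 RNA sequencing libraries of the study, 2 in each of the 2 groups, and on 26414 expressed genes of the 55421 genes counted in each library. All mice were wild-type males. LPS+DHEA+Nb mice received 1 intraperitoneal injection of LPS and, 6 h later, 1 of DHEA together with Nb23-bi, an agent the labels give by that name alone. CTRL mice received phosphate-buffered saline in the same volume. The other groups, LPS+DHEA (DHEA at 6 h, without Nb23-bi) and LPS (LPS alone), have 2 libraries each and share the estimate of the spread. There was no group given both agents without LPS. Nothing used here gives the doses, the age of the mice or when tissue was collected. Nor does it say whether the 2 libraries of a group came from separate animals, so p-values measure the spread between libraries, which may be technical.

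LPS is a cell wall component of Gram-negative bacteria that is sensed by Toll-like receptor 4 on macrophages and other cells and drives NF-kappa B dependent transcription of cytokines, chemokines, adhesion molecules and acute phase proteins. In the testis the responding cells lie mostly in the interstitium, among macrophages, endothelium, peritubular cells and the Leydig cells that make testosterone, while germ cells inside the tubules supply most of the RNA. DHEA is a steroid precursor of androgens and oestrogens.

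Each library held 61291062 to 64521795 counts, and the correlation across genes of log2 counts scaled to library size was 0.9695 to 0.9711 within groups and 0.9662 to 0.9713 between groups. The extraction protocol speaks of islets, whereas the labels name testis. The germ cell markers bore out the label: counts-per-million values (CPM) of the spermatid gene Prm1 were 2773.3 and 2825.6 in LPS+DHEA+Nb and 2912.2 and 2936.5 in CTRL. The epididymal markers Lcn5, Defb20 and Crisp1 had between 0 and 10 counts in each of these 4 libraries. Insl3, made by Leydig cells, had 558.6 and 506.3 CPM in LPS+DHEA+Nb and 551.5 and 597.2 CPM in CTRL.

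With 2 libraries a group, edgeR called few genes between testis treated with LPS, DHEA and Nb23-bi and vehicle testis. Ncoa4, the cargo receptor for autophagic breakdown of ferritin, and the antisense transcript 1700027A15Rik fell, and Apc, the scaffold of the beta-catenin destruction complex, Spcs1, a subunit of the signal peptidase complex, and Nol8, a nucleolar protein, rose. Of 17 alternative fits, Spcs1 was called in 9 and Nol8 in 12, while Ncoa4, Apc and 1700027A15Rik were called in all 17. In LPS versus CTRL, 1700027A15Rik and Spcs1 were not called (log2 fold change -0.26 and -0.09). Among acute phase genes, 7 of 23 tested were called lower than in LPS alone, against 0.129% of all genes tested. Of these calls, those of Saa3, Timp1 and Serpina3n did not hold without some single libraries. Saa3, Timp1 and Serpina3n, like the macrophage gene Marco, were above CTRL in both libraries, without passing edgeR's test but passing that of DESeq2. The steroidogenic and germ cell lists had medians near zero. In bulk tissue, a change in the number of cells of a type and a change in RNA per cell cannot be told apart.

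By edgeR's quasi-likelihood test with Benjamini-Hochberg adjustment, 8 of 26414 genes were called at an adjusted p under 0.05 (0.0303%), 4 higher (0.0151%) and 4 lower (0.0151%). At an unadjusted p under 0.05 there were 1131 (4.28%), 576 higher (2.18%) and 555 lower (2.1%). DESeq2 called 74 genes (0.28%), 44 higher and 30 lower, and limma-voom called 4 (0.0151%), 2 in each direction. The median log2 fold change over all genes tested was 0.002. In the same fit, which shares the CTRL libraries, LPS versus CTRL had 68 genes higher and 10 lower (0.295% in all), and LPS+DHEA versus CTRL had 36 higher and 4 lower (0.151% in all). Of all genes tested, 0.17% were called in LPS+DHEA+Nb versus LPS and 0.0871% in LPS+DHEA+Nb versus LPS+DHEA. The number of calls depended on single libraries. It was 16 higher and 21 lower without the first LPS+DHEA+Nb library, 12 higher and 19 lower without the second, 16 higher and 11 lower without the first CTRL library, 21 higher and 6 lower without the second, and 7 higher and 6 lower without the first LPS library.

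**Figure D1:**
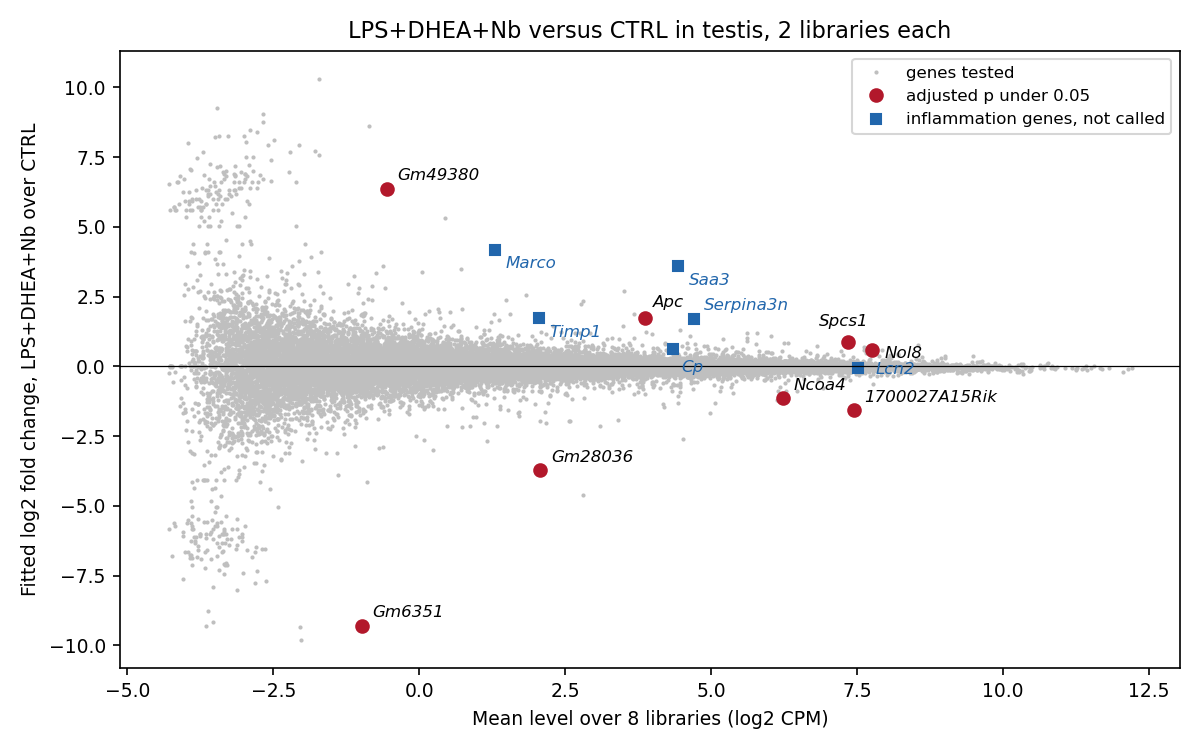
Fitted log2 fold change of LPS+DHEA+Nb over CTRL (vertical axis) against the mean level over 8 libraries in log2 CPM (horizontal axis) for 26414 genes, shown as grey points. Red circles mark the 8 called genes and blue squares 6 inflammation genes that were not called, among them Saa3 at 3.60, Marco at 4.19 and Lcn2 at -0.05. The position of Gm6351, with no count in LPS+DHEA+Nb, depends on how zeros are fitted.

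The smallest adjusted p belonged to 1700027A15Rik, an antisense transcript on chromosome 1 (GRCm38, chr1:72984844-73025507, plus strand) that spans Tnp1, the gene of a transition protein that replaces histones in spermatids. It had 82.7 and 85.7 CPM in LPS+DHEA+Nb, 207.5 and 217.6 in LPS+DHEA, 209.6 and 209.2 in LPS, and 256.7 and 245.5 in CTRL. The LPS+DHEA+Nb libraries stood alone at the bottom, and the 3 other groups lay within a narrower band. The log2 fold change against CTRL was -1.58 (SE 0.07, adjusted p = 2.61e-06), against LPS+DHEA -1.34 (adjusted p = 1.41e-05) and against LPS -1.31 (adjusted p = 8.34e-06). Tnp1 itself, with 1912.3 and 1881.5 CPM in LPS+DHEA+Nb and 1972.9 and 1948.7 CPM in CTRL, was not called (log2 fold change -0.05, adjusted p = 1 in edgeR). The 2 genes share 40 exon bases on opposite strands. The library kit keeps strand, but no source used here gives the strand setting of the counting, and reads of the shared bases could have been counted for either gene.

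Ncoa4 (chromosome 14, chr14:32159865-32179855, plus strand) delivers ferritin to lysosomes and so releases stored iron. It had 60.7 and 62.3 CPM in LPS+DHEA+Nb, 61.3 and 67.5 in LPS+DHEA, 60.9 and 60.6 in LPS, and 123.3 and 148 in CTRL. All 6 libraries from LPS-treated mice were alike, and both CTRL libraries were higher. Against CTRL the log2 fold change was -1.14 in LPS+DHEA+Nb (SE 0.10, adjusted p = 0.00209), -1.07 in LPS+DHEA (adjusted p = 0.00243) and -1.16 in LPS (adjusted p = 0.000515), comparisons that share the CTRL libraries. A near copy, Gm6768, holds 17.9% of the 50-base stretches of Ncoa4 transcripts. Its counts were 2748 and 2439 in LPS+DHEA+Nb and 2370 and 2450 in CTRL, and the sum of the 2 genes was 6605 and 6387 counts in LPS+DHEA+Nb against 10086 and 11922 in CTRL. Ncoa4 was the only one of 31 tested genes of iron and copper handling that edgeR called. The median of that list was 0.06.

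Apc had 24.9 and 23.8 CPM in LPS+DHEA+Nb, 8.89 and 11.5 in LPS+DHEA, 26.4 and 23.8 in LPS, and 8.17 and 6.47 in CTRL. The LPS+DHEA+Nb libraries matched those of LPS, and the LPS+DHEA libraries lay near CTRL. Apc rose by 1.74 on the log2 scale against CTRL (SE 0.16, adjusted p = 0.00327). Against LPS+DHEA it was higher by 1.26 (adjusted p = 0.0186, and 0.113 without the first LPS+DHEA library), and against LPS the difference was -0.04 (adjusted p = 0.998). Among 27 tested genes of the Wnt destruction complex and Wnt targets, Apc alone was called, and the median was -0.02. Of its 50-base stretches, 0.264% occur in another gene.

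Spcs1 (chromosome 14, chr14:30999826-31001672, minus strand) encodes a subunit of the complex that cleaves signal peptides from secreted proteins. It had 300.2 and 230.8 CPM in LPS+DHEA+Nb, 130 and 137.2 in LPS+DHEA, 138.4 and 135.8 in LPS, and 147.2 and 145 in CTRL. Both LPS+DHEA+Nb libraries exceeded the other 6. It rose by 0.86 against CTRL (SE 0.10, adjusted p = 0.0277), and was higher than LPS by 0.95 (adjusted p = 0.00469) and than LPS+DHEA by 0.99 (adjusted p = 0.00761, and 0.0833 without the first LPS+DHEA library). The adjusted p against CTRL was above 0.05 without the first or second CTRL library (0.0994 and 0.125), the second LPS library (0.0515), or the first or second LPS+DHEA library (0.0754 and 0.0794). Its neighbour on the other strand, Glt8d1, overlaps it by 252 exon bases and had 12028 and 12818 counts in LPS+DHEA+Nb against 11591 and 12034 in CTRL.

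Nol8 (chromosome 13, chr13:49653078-49679016, plus strand), a nucleolar protein of ribosome production, had 237.8 and 258.1 CPM in LPS+DHEA+Nb, 221.3 and 248.2 in LPS+DHEA, 232.1 and 231.2 in LPS, and 170.5 and 157.9 in CTRL. As with Ncoa4, the 6 libraries from LPS-treated mice formed one group and CTRL stood apart, here below them. It rose by 0.59 in LPS+DHEA+Nb (SE 0.08, adjusted p = 0.0337). The other differences from CTRL were 0.52 in LPS+DHEA (adjusted p = 0.0331) and 0.50 in LPS (adjusted p = 0.0259). The call in LPS+DHEA+Nb rested on single libraries, with an adjusted p of 0.05 without the first CTRL library, 0.126 without the second and 0.0817 without the second LPS+DHEA+Nb library. Without the first or second CTRL library the adjusted p was 0.0666 and 0.192 for the difference in LPS+DHEA, and 0.0656 and 0.158 for that in LPS. It was also above 0.05 without the second LPS+DHEA library in LPS+DHEA (0.152), and without the first or second LPS library in LPS (0.0823 and 0.0973).

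The other 3 called genes lie in overlapping or copied loci and could not be told apart from their partners. Gm28036 (chr2:156071845-156127092, minus strand), a read-through gene, had 27 and 57 counts in LPS+DHEA+Nb and 515 and 586 in CTRL (difference on the log2 scale -3.71, SE 0.36, adjusted p = 0.0129). It shares 95.4% of its 50-base stretches with Cpne1, Rbm12 and Nfs1. Summed with these 3 genes, the locus had 5184 and 5300 counts in LPS+DHEA+Nb and 4879 and 5260 in CTRL, a log2 fold change of 0.04 (adjusted p = 1 in edgeR). Gm49380 (chr9:44066327-44113500, minus strand) had 1904 and 1776 counts in LPS+DHEA+Nb and 34 and 10 in CTRL (difference on the log2 scale 6.37, SE 0.55, adjusted p = 0.0337). The overlapping gene Gm39325 had 66 and 27 counts in LPS+DHEA+Nb and 17 and 2294 in CTRL, so that the first CTRL library was low in both. Summed with Gm39325 and Rnf26 the difference over the locus was 0.10 on the log2 scale (adjusted p = 1 in edgeR). The adjusted p of Gm49380 was 0.187 without either LPS+DHEA library, 0.0621 without the first LPS+DHEA+Nb library and 0.0788 without the second. Gm6351 (chr5:94076385-94080997, plus strand) had 0 counts in both LPS+DHEA+Nb libraries and 83 and 74 in CTRL. It was at least 26.3-fold lower, taking 3 counts per library as the floor (adjusted p = 0.0129). All of its 50-base stretches (100%) occur in 21 other genes, and the summed counts of this family were 222 and 136 in LPS+DHEA+Nb and 206 and 227 in CTRL.

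**Figure D2:**
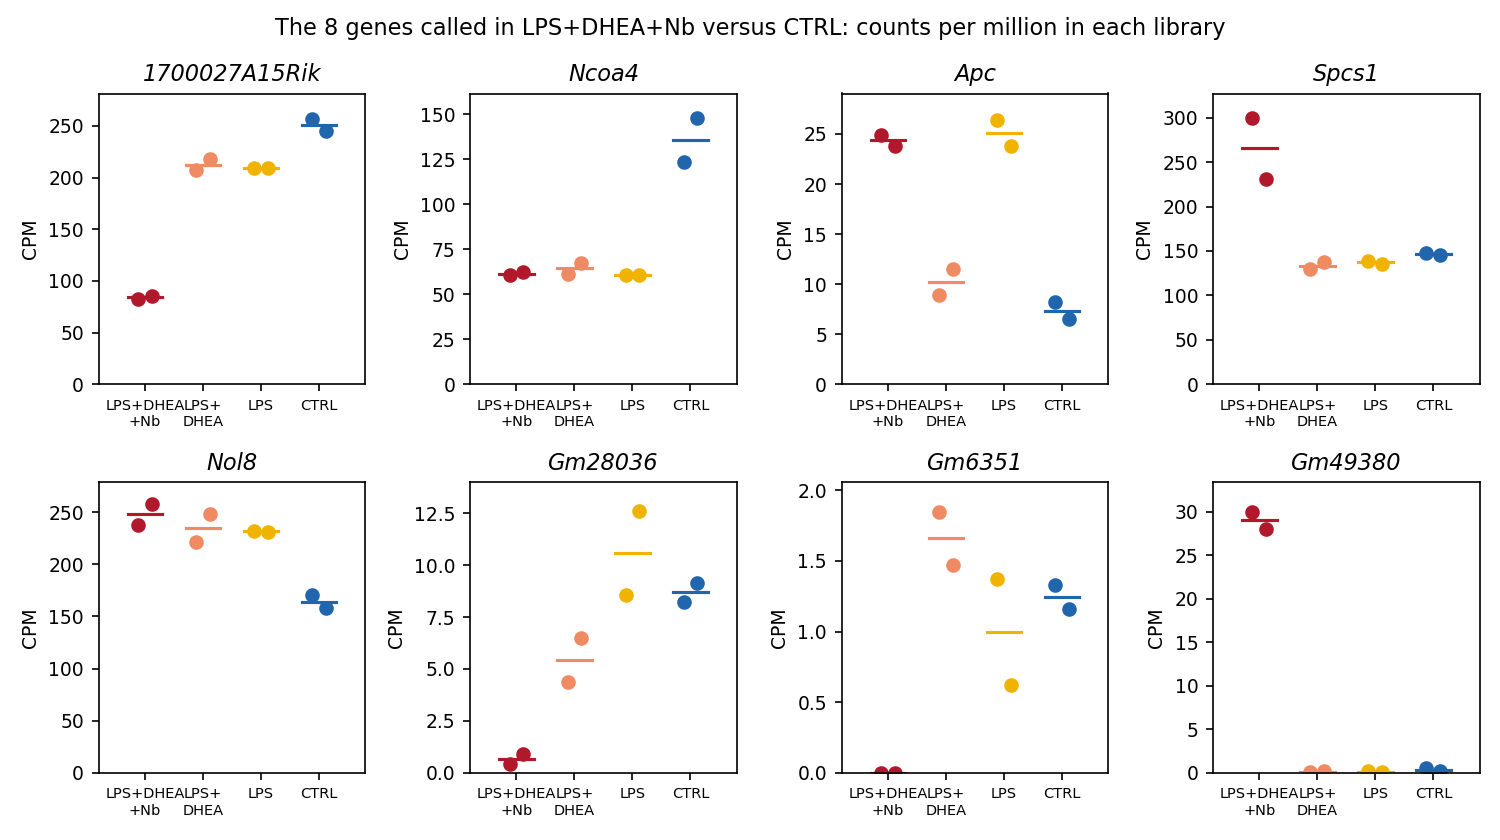
CPM (vertical axes, starting at 0) of the 8 called genes in each library, with LPS+DHEA+Nb leftmost and CTRL rightmost. Points are libraries and lines are means of 2. Ncoa4 and Nol8 differ from CTRL in all 3 LPS-treated groups, 1700027A15Rik and Spcs1 stand apart in LPS+DHEA+Nb, and Apc is high in LPS+DHEA+Nb and LPS.

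The acute phase and injury proteins are secreted early in inflammation. They were the list with the second highest median after LPS alone in these data (2.42 in LPS versus CTRL, 1.44 in LPS+DHEA versus CTRL). In LPS+DHEA+Nb versus CTRL edgeR called 0 of 23 tested members, and DESeq2 called 4 higher and limma-voom 0. At an unadjusted p under 0.05 in edgeR 7 members were higher and 1 lower (2.18% and 2.1% of all genes tested, here and for the lists below). The median was 0.19 (0.23 with genes absent from a group at their bound), and 8 of 23 (34.8%) had both LPS+DHEA+Nb libraries above both CTRL libraries, against 16.4% of all genes. None had both below, against 16.5% of all genes. Against LPS, 7 of the 23 were called lower (34 genes in all, 0.129%). Of these calls, that of Saa3 did not hold without either LPS+DHEA library (adjusted p 0.0898 each) or without the first or second LPS+DHEA+Nb library (0.0523 and 0.108), and that of Serpina3n did not hold without the first or second LPS library (0.0689 and 0.14) or LPS+DHEA library (0.14 and 0.141). That of Timp1 did not hold without the second LPS library (0.0599) or the second LPS+DHEA+Nb library (0.07).

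Saa3, a serum amyloid A protein made locally in inflamed tissue, had 16.6 and 12.3 CPM in LPS+DHEA+Nb, 93.9 and 98.1 in LPS+DHEA, 114.1 and 161.2 in LPS, and 0.895 and 1.48 in CTRL. Each LPS+DHEA+Nb library was above both CTRL libraries and below every other LPS-treated library. The log2 fold change against CTRL was 3.60 (SE 0.31), with an adjusted p of 0.0656 in edgeR. In the other 2 groups it was 6.33 and 6.85. Timp1, an inhibitor of matrix metalloproteinases, had 3.97 and 2.57 CPM in LPS+DHEA+Nb, 7.50 and 9.50 in LPS+DHEA, 10.6 and 11 in LPS, and 0.863 and 1.09 in CTRL (difference on the log2 scale 1.74, SE 0.25, adjusted p = 0.0732 in edgeR). The protease inhibitor Serpina3n had 22.7 and 15.4 CPM in LPS+DHEA+Nb and 4.7 and 6.91 in CTRL (difference on the log2 scale 1.71, adjusted p = 0.239 in edgeR), against 74.8 and 92.2 in LPS. Saa3, Timp1 and Serpina3n thus lay in the order CTRL, LPS+DHEA+Nb, LPS+DHEA, LPS, with no overlap between the libraries of neighbouring groups. DESeq2 called all 3 against CTRL, with adjusted p of 4.92e-22 for Saa3, 5.48e-06 for Timp1 and 1.41e-15 for Serpina3n. Of 17 alternative fits, DESeq2 among them, Saa3 was called in 6, Timp1 in 3 and Serpina3n in 2.

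Other members lay closer to CTRL. Cp, the copper-carrying ferroxidase ceruloplasmin, had 14.3 and 12.2 CPM in LPS+DHEA+Nb, 32.2 and 34.6 in LPS+DHEA, 43.9 and 45.7 in LPS, and 8.21 and 9.03 in CTRL. It was 1.76 lower on the log2 scale than in LPS (adjusted p = 8.68e-05) and 1.34 lower than in LPS+DHEA (adjusted p = 0.00264), and the difference from CTRL was 0.62 (SE 0.12, adjusted p = 0.235 in edgeR and 0.00706 in DESeq2). Lrg1, a secreted glycoprotein, had 6.42 and 6.31 CPM in LPS+DHEA+Nb, 17.4 and 16.3 in LPS+DHEA, 31.5 and 22.2 in LPS, and 4.33 and 5 in CTRL. Its difference from CTRL was 0.45 (adjusted p = 1). Lcn2, which withholds iron from bacteria, had 139.9 and 103.8 CPM in LPS+DHEA+Nb, 223.9 and 250.1 in LPS+DHEA, 327 and 313.8 in LPS, and 127 and 124.9 in CTRL. Here the LPS+DHEA+Nb libraries straddled the CTRL libraries (log2 fold change -0.05, SE 0.12, adjusted p = 1), and against LPS the difference was -1.39 (adjusted p = 0.00344).

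**Figure D3:**
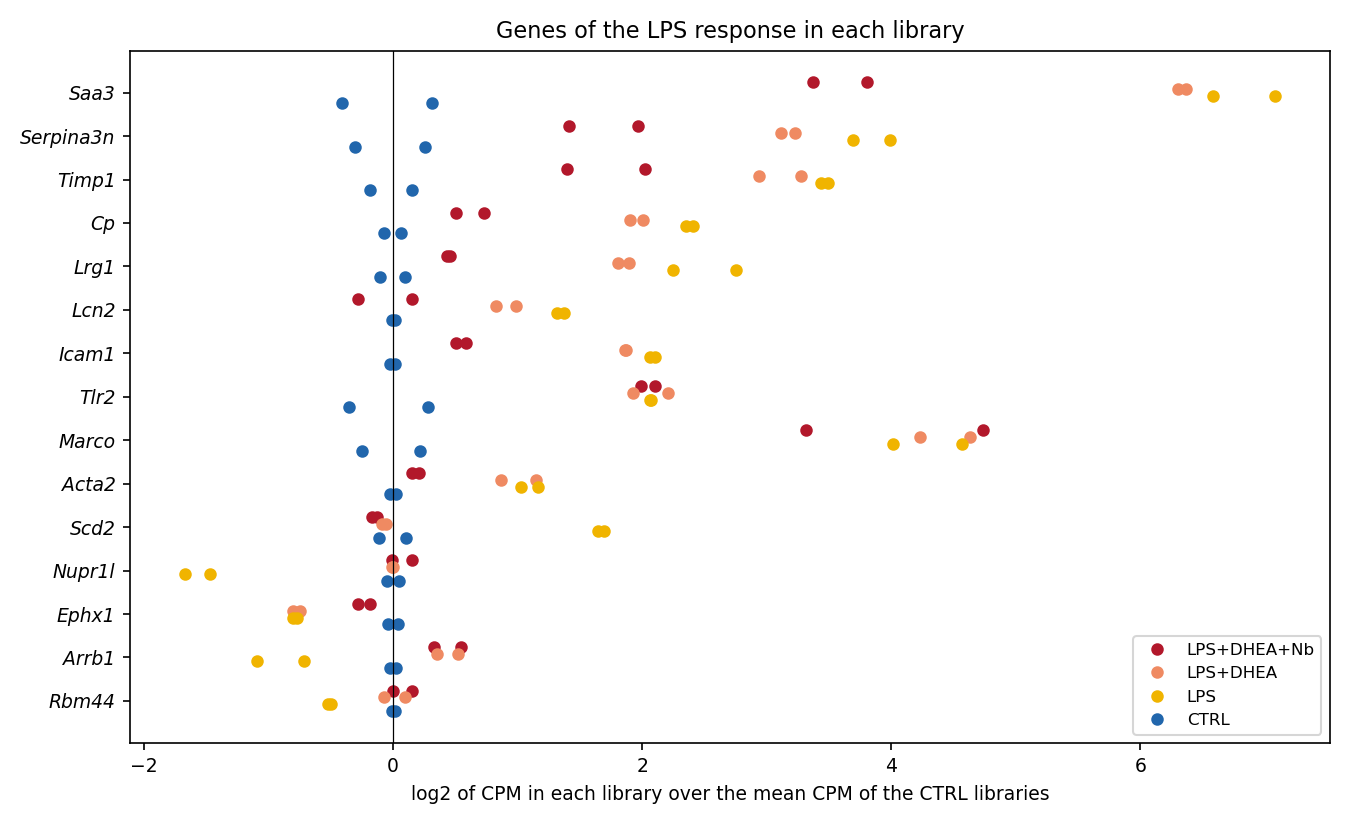
Level of 15 genes in each of 8 libraries as log2 of CPM over the mean CPM of the 2 CTRL libraries (horizontal axis), with LPS+DHEA+Nb uppermost in each row. For Saa3, Serpina3n and Timp1 the LPS+DHEA+Nb points lie between CTRL and the other LPS-treated libraries, while for Lcn2 they fall on both sides of CTRL and for Tlr2 they lie among the other LPS-treated libraries. For Marco 1 lies below and the other above those libraries, and both are above CTRL.

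The adhesion molecule Icam1, an endothelial receptor for leukocytes, had 2.85 and 2.70 CPM in LPS+DHEA+Nb, 6.90 and 6.93 in LPS+DHEA, 7.92 and 8.17 in LPS, and 1.87 and 1.92 in CTRL. It was 0.55 above CTRL (SE 0.18, adjusted p = 1) and 1.54 below LPS (adjusted p = 0.006). Among 26 tested genes of NF-kappa B feedback and adhesion edgeR called 0 (4 higher and 0 lower at an unadjusted p under 0.05, 1 by DESeq2, 0 by limma-voom), and the median was 0.16, or 0.12 with genes absent from a group at their bound. Both LPS+DHEA+Nb libraries were above both CTRL libraries for 30.8% and below for 15.4%, against 16.4% and 16.5% of all genes. Of 26 tested cytokines and chemokines edgeR called 0 (5 higher and 0 lower at an unadjusted p under 0.05, 1 by DESeq2, 0 by limma-voom). Their median was 0.37 (0.36 with bounds), beside 1.20 in LPS+DHEA and 0.98 in LPS. For 23.1% of these genes both LPS+DHEA+Nb libraries were above both CTRL libraries, and for 3.85% both were below. The B cell attractant Cxcl13 had 0.472 and 0.126 CPM in LPS+DHEA+Nb, 2.35 and 2.18 in LPS+DHEA, 3.7 and 3.18 in LPS, and 0.0959 and 0.125 in CTRL, and the monocyte attractant Ccl7 had 1.04 and 0.568 in LPS+DHEA+Nb and 0.16 and 0.25 in CTRL. For Cxcl13 the second LPS+DHEA+Nb library had 8 counts, as did the second CTRL library, so the groups were not separated, while Ccl7 was higher in both LPS+DHEA+Nb libraries. Neither was called (adjusted p = 1 and 0.508 in edgeR). Il1b, Tnf and Tlr4 were at or under 1.92 CPM in every library, while Il6 did not pass the filter on low counts.

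Leukocyte genes did not move as one. Marco, a scavenger receptor of macrophages, had 2.60 and 6.97 CPM in LPS+DHEA+Nb, 6.48 and 4.89 in LPS+DHEA, 6.19 and 4.22 in LPS, and 0.304 and 0.219 in CTRL. Both LPS+DHEA+Nb libraries were above CTRL, 1 below and the other above the 4 other LPS-treated libraries. The log2 fold change against CTRL was 4.19 (SE 0.53, adjusted p = 0.0816 in edgeR and 1.63e-15 in DESeq2). Over 17 alternative fits it ran from 3.31 to 4.73, and Marco was called in 3 of them. Tlr2, a receptor for bacterial lipoproteins, had 1.67 and 1.80 CPM in LPS+DHEA+Nb, 1.94 and 1.60 in LPS+DHEA, 1.75 and 1.76 in LPS, and 0.511 and 0.328 in CTRL (adjusted p = 0.156 in edgeR and 0.00671 in DESeq2). Cd163, the haemoglobin scavenger receptor of resident macrophages, had 0.205 and 0.426 CPM in LPS+DHEA+Nb, 0.704 and 0.883 in LPS+DHEA, 2.91 and 2.00 in LPS, and 1.5 and 2.41 in CTRL, the lowest level of the 4 groups (log2 fold change -2.63, SE 0.45, adjusted p = 0.156 in edgeR and 0.000845 in DESeq2). Over 32 tested macrophage markers edgeR called 0, with 6 higher and 4 lower at an unadjusted p under 0.05, DESeq2 called 3 higher and 1 lower and limma-voom 0. The list median was 0.05. Both LPS+DHEA+Nb libraries lay above both CTRL libraries for 37.5% of members and below for 18.8%, against 16.4% and 16.5% of all genes. The defining markers differed in sign: Adgre1 had 8.36 and 13.9 CPM in LPS+DHEA+Nb and 5.18 and 4.53 in CTRL, Csf1r had 7.88 and 5.73 CPM in LPS+DHEA+Nb and 11.8 and 9.77 in CTRL, and Cd68 had 4.06 and 3.74 CPM in LPS+DHEA+Nb and 2.22 and 5.35 in CTRL. The neutrophil gene S100a8 had 2 and 6 counts in LPS+DHEA+Nb and 0 and 0 in CTRL, and Ly6g had 5 and 0 in LPS+DHEA+Nb and 0 and 0 in CTRL. S100a9 had 32 and 8 counts in LPS+DHEA+Nb and 0 and 5 in CTRL. The formyl peptide receptor genes Fpr2 and Fpr1 had 0 counts in both CTRL libraries. In LPS+DHEA+Nb, Fpr2 had 33 and 20 counts and Fpr1 had 8 and 40. In LPS they had 32 and 61, and 39 and 49. Neither was called against CTRL by edgeR (adjusted p = 0.142 and 0.293), and both were by DESeq2 (0.00769 and 0.0124). Of 12 tested neutrophil markers edgeR called 0 (4 higher at an unadjusted p under 0.05, 2 by DESeq2, 0 by limma-voom). Their median log2 fold change was 1.95, or 0.41 with genes absent from a group at their bound. It was 5.23 (2.09 with bounds) in LPS+DHEA and 6.06 (2.98 with bounds) in LPS. Of the 12, 4 (33.3%) had both LPS+DHEA+Nb libraries above both CTRL libraries, against 16.4% of all genes. None had both below, against 16.5% of all genes. Their summed level, most of it from Lcn2 (values above), was 144.8 and 110.8 CPM in LPS+DHEA+Nb and 131.9 and 129.2 CPM in CTRL. The part of these markers in the inflammatory genes above was not tested.

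The lists of antigen presentation differed in sign, with MHC class I above zero and MHC class II below it. Of 25 tested MHC class I and antigen processing genes, 14 (56%) had both LPS+DHEA+Nb libraries above both CTRL libraries and 3 (12%) had both below, against 16.4% and 16.5% of all genes. The median log2 fold change was 0.25, beside 0.63 in LPS+DHEA and 0.69 in LPS. EdgeR called 0 (6 higher and 0 lower at an unadjusted p under 0.05), and DESeq2 and limma-voom called 0. B2m, the light chain of class I molecules, had 58.6 and 46.5 CPM in LPS+DHEA+Nb, 79.2 and 70.9 in LPS+DHEA, 71 and 90.7 in LPS, and 42.4 and 36.7 in CTRL (adjusted p = 1). The interferon-induced proteasome subunit Psmb8 had 3.15 and 2.35 CPM in LPS+DHEA+Nb and 1.17 and 1.48 in CTRL, 1.05 higher on the log2 scale (SE 0.28, adjusted p = 0.771). Of 9 tested MHC class II genes, which present antigen to helper T cells, 1 (11.1%) had both LPS+DHEA+Nb libraries above both CTRL libraries and 3 (33.3%) had both below. The median was -0.44, beside -0.70 in LPS+DHEA and -0.56 in LPS, and edgeR called 0 (0 higher and 1 lower at an unadjusted p under 0.05, 1 lower by DESeq2, 0 by limma-voom). The summed level of the class II genes was 41.6 and 37.9 CPM in LPS+DHEA+Nb and 92.3 and 44.7 in CTRL. The difference in summed level thus lay mostly in the first CTRL library. H2-Eb1, a class II beta chain, had 2.68 and 2.32 CPM in LPS+DHEA+Nb, 2.16 and 1.72 in LPS+DHEA, 2.09 and 4.33 in LPS, and 11.1 and 4.72 in CTRL (difference on the log2 scale -1.66, SE 0.46, adjusted p = 0.989 in edgeR and 0.021 in DESeq2). Of 25 tested complement genes 12 (48%) had both libraries above and 0 both below CTRL. Their median was 0.26, beside 0.23 in LPS+DHEA and 0.56 in LPS, and edgeR called 0 (4 higher at an unadjusted p under 0.05, 1 by DESeq2, 0 by limma-voom). The complement protease C1ra had 16.1 and 12.8 CPM in LPS+DHEA+Nb and 10.1 and 8.36 in CTRL, and Cfb, factor B of the alternative pathway, had 15.9 and 8.80 CPM in LPS+DHEA+Nb and 4.28 and 6.30 in CTRL. The groups did not overlap for either gene. Neither was called by edgeR (adjusted p = 0.481 for C1ra and 1 for Cfb), and DESeq2 called Cfb (adjusted p = 0.000845).

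Several genes called in LPS versus CTRL were not called in LPS+DHEA+Nb versus CTRL. The fatty acid desaturase Scd2 had 46.1 and 47.3 CPM in LPS+DHEA+Nb, 49.9 and 48.6 in LPS+DHEA, 167.9 and 162.1 in LPS, and 55.7 and 47.8 in CTRL. Nupr1l had 195.1 and 175.4 CPM in LPS+DHEA+Nb, 175.6 and 174.8 in LPS+DHEA, 63.6 and 55.2 in LPS, and 170.7 and 181.6 in CTRL. Both were called against LPS (log2 fold change -1.82, adjusted p = 8.34e-06, and 1.64, adjusted p = 1.12e-05) and differed from CTRL by -0.15 and 0.07 (adjusted p = 1 each). Smooth muscle actin, Acta2, had 51.1 and 53.0 CPM in LPS+DHEA+Nb, 83.9 and 101.9 in LPS+DHEA, 103 and 93.6 in LPS, and 45.3 and 46.7 in CTRL. Unlike Scd2 and Nupr1l, its LPS+DHEA libraries lay with LPS, and LPS+DHEA+Nb was lower than LPS+DHEA (-0.84, adjusted p = 0.0172) and 0.18 from CTRL (adjusted p = 1). Ephx1, which detoxifies epoxides, had 58.7 and 62.6 CPM in LPS+DHEA+Nb, 40.8 and 42.4 in LPS+DHEA, 41.7 and 40.9 in LPS, and 69.4 and 73 in CTRL, between LPS and CTRL with no overlap (log2 fold change against CTRL -0.23, adjusted p = 1). For Arrb1 and Rbm44 the LPS+DHEA and LPS+DHEA+Nb libraries were alike. Arrb1, a beta-arrestin, had 22.9 and 26.6 CPM in LPS+DHEA+Nb, 23.2 and 26.1 in LPS+DHEA, 11.1 and 8.52 in LPS, and 17.9 and 18.5 in CTRL, so that both LPS+DHEA+Nb libraries were above CTRL (log2 fold change 0.44, adjusted p = 1 in edgeR). Rbm44, an RNA-binding protein of germ cell bridges, had 84.9 and 94.5 CPM in LPS+DHEA+Nb, 80.8 and 90.7 in LPS+DHEA, 60.1 and 59.2 in LPS, and 84.4 and 85.7 in CTRL (adjusted p = 1 against CTRL). The calls of LPS versus CTRL (adjusted p = 0.0391 for Arrb1 and 0.0409 for Rbm44) did not hold without the first or second CTRL library (0.109 and 0.141 for Arrb1, 0.137 and 0.16 for Rbm44), without the first or second LPS library for Rbm44 (0.129 and 0.18), and without the second LPS library (0.168) or the first or second LPS+DHEA library (0.0607 and 0.06) for Arrb1.

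Lpl, which hydrolyses circulating triglycerides, was the reverse case. It had 9.71 and 9.37 CPM in LPS+DHEA+Nb, 3.60 and 2.70 in LPS+DHEA, 3.35 and 3.12 in LPS, and 3.60 and 4.88 in CTRL. The LPS+DHEA+Nb libraries were above all 6 others. Against CTRL it was not called by edgeR (1.17, SE 0.22, adjusted p = 0.231) and was called by DESeq2 (adjusted p = 0.00474). In edgeR it was higher than LPS+DHEA (1.60, adjusted p = 0.0322) and higher than LPS (1.56, adjusted p = 0.0194), calls that did not hold without either LPS+DHEA+Nb library (adjusted p 0.0586 and 0.0706 against LPS+DHEA, 0.0544 and 0.0603 against LPS), without the first or second LPS+DHEA library against LPS+DHEA (0.0768 and 0.149), or without the first or second LPS library against LPS (0.0684 and 0.115). Myo5a, a myosin motor of vesicle transport, followed Apc: it had 20.1 and 21.9 CPM in LPS+DHEA+Nb, 12.2 and 11.4 in LPS+DHEA, 24.7 and 24.8 in LPS, and 12.8 and 14.2 in CTRL (log2 fold change against CTRL 0.64, SE 0.11, adjusted p = 0.201 in edgeR and 0.0058 in DESeq2).

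The median log2 fold change over 32 tested Leydig cell and steroidogenic genes was 0.05 in LPS+DHEA+Nb, beside -0.07 in LPS+DHEA and 0.03 in LPS, each against CTRL. Cyp17a1, the 17-hydroxylase of androgen synthesis, had 112.7 and 96.3 CPM in LPS+DHEA+Nb, 27.7 and 25.3 in LPS+DHEA, 44.2 and 17.4 in LPS, and 105.5 and 155.5 in CTRL. Cyp11a1, which makes pregnenolone from cholesterol, had 96.3 and 72.9 CPM in LPS+DHEA+Nb, 35.6 and 38 in LPS+DHEA, 60.6 and 28.8 in LPS, and 81.8 and 124.3 in CTRL. Hsd3b1, the next enzyme, had 66.6 and 59.7 CPM in LPS+DHEA+Nb, 28.6 and 25.1 in LPS+DHEA, 12.2 and 22.9 in LPS, and 67.3 and 50.8 in CTRL. In these 3 genes the LPS+DHEA+Nb libraries lay above all LPS+DHEA and LPS libraries, yet no comparison passed the test (adjusted p against CTRL 1 each, against LPS+DHEA 0.979, 1 and 0.901, and against LPS 0.659, 0.828 and 0.246). They are 3 of 32 tested genes, over which the median in LPS+DHEA+Nb was 0.11 against LPS+DHEA and 0.05 against LPS. The libraries of a group differed widely, as the 2 values of Cyp17a1 in LPS show. Star, which imports cholesterol into mitochondria, had 62.7 and 36.1 CPM in LPS+DHEA+Nb and 25.9 and 33.1 in CTRL, higher in both libraries (0.74 on the log2 scale, adjusted p = 1). The luteinizing hormone receptor Lhcgr had 6.80 and 6.81 CPM in LPS+DHEA+Nb and 5.88 and 9.22 in CTRL. Fdxr, which feeds electrons to the mitochondrial steroid hydroxylases, had 31.5 and 31.0 CPM in LPS+DHEA+Nb, 31.1 and 30.5 in LPS+DHEA, 25.7 and 31.2 in LPS, and 22.4 and 21.9 in CTRL (difference from CTRL on the log2 scale 0.50, SE 0.11, adjusted p = 0.407 in edgeR and 0.0494 in DESeq2), the smallest p of 32 tested genes of this list. Of these, edgeR called 0 (2 higher at an unadjusted p under 0.05, 1 by DESeq2, 0 by limma-voom). Both LPS+DHEA+Nb libraries were above both CTRL libraries for 25% and below for 6.25%, against 16.4% and 16.5% of all genes. The receptor Adgrg2 was low, with 0.598 and 0.694 CPM in LPS+DHEA+Nb and 0.607 and 0.953 in CTRL.

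**Figure D4:**
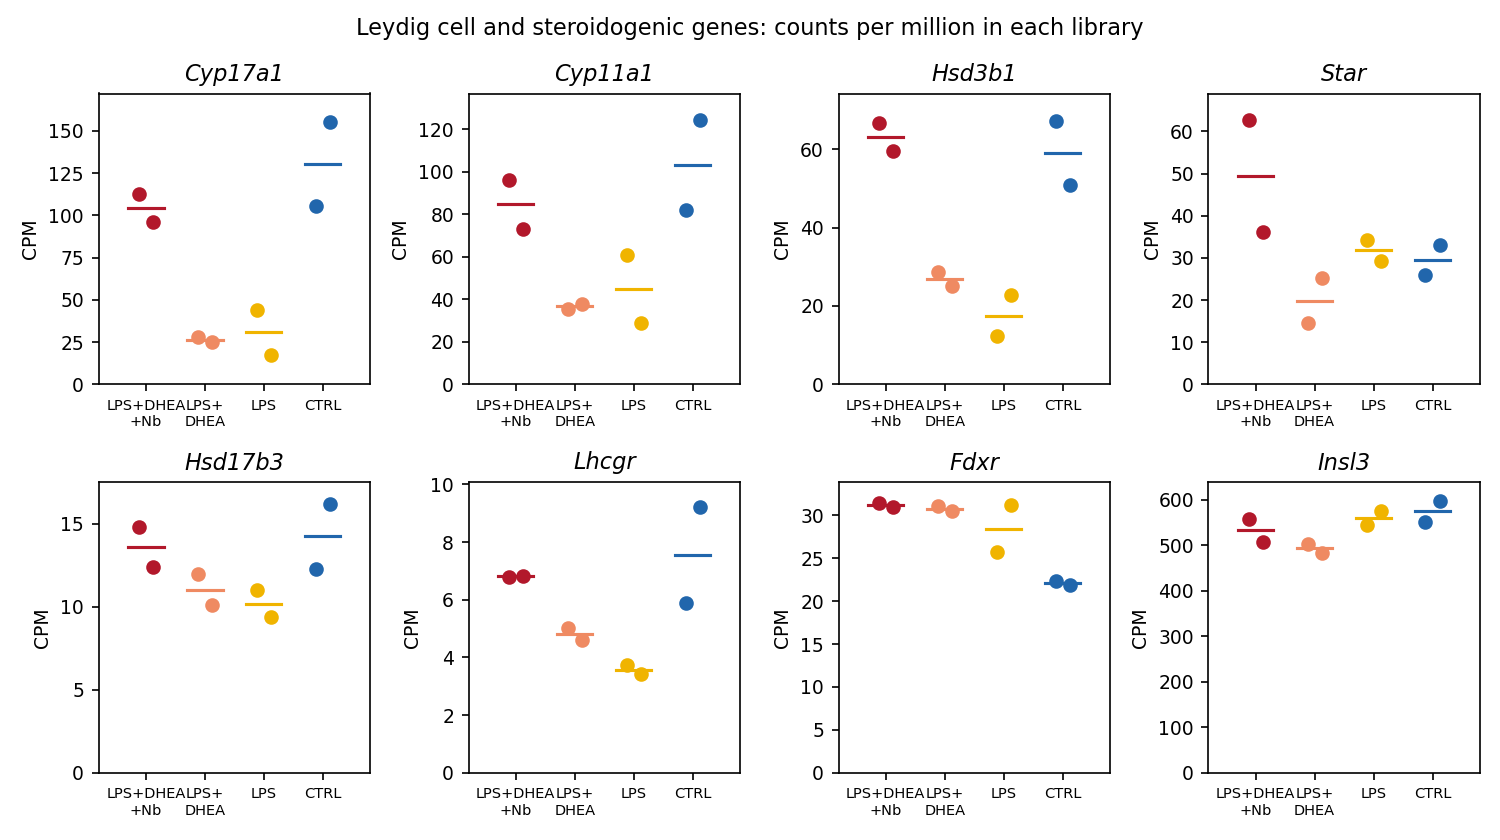
CPM (vertical axes, starting at 0) of 8 Leydig cell and steroidogenic genes in each library, LPS+DHEA+Nb leftmost and CTRL rightmost. Points are libraries and lines are means of 2. For Cyp17a1, Cyp11a1 and Hsd3b1 the LPS+DHEA+Nb libraries lie near CTRL and above the other LPS-treated libraries, and no difference passed the test. For Fdxr the LPS+DHEA+Nb libraries overlap those of LPS+DHEA and LPS.

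Germ cell and Sertoli cell lists had medians near zero. The median log2 fold change was -0.09 over 25 spermatogonial genes, 0.03 over 39 meiotic genes, 0.01 over 49 spermatid and sperm genes, 0 over 31 Sertoli cell genes and -0.01 over 26 blood-testis barrier genes. Only 6 of the 25 spermatogonial genes had a positive value. Both LPS+DHEA+Nb libraries lay below both CTRL libraries for 24% of spermatogonial, 15.4% of meiotic, 28.6% of spermatid, 22.6% of Sertoli cell and 11.5% of barrier genes, against 16.5% of all genes. Both lay above for 0%, 23.1%, 16.3%, 9.68% and 11.5%, against 16.4% of all genes. EdgeR, DESeq2 and limma-voom called 0 in each, and at an unadjusted p under 0.05 there were 2 higher meiotic genes and 2 higher and 3 lower spermatid genes. The smallest p among the spermatid genes was that of Spem1, needed for shaping the sperm head and neck, with 542.2 and 584.2 CPM in LPS+DHEA+Nb and 670.4 and 645.1 in CTRL (difference on the log2 scale -0.22, SE 0.06, adjusted p = 0.837). Sox9, the Sertoli cell transcription factor, had 15.5 and 14.7 CPM in LPS+DHEA+Nb and 16.3 and 18.2 in CTRL. The T cell marker Cd3e had 24 and 6 counts in LPS+DHEA+Nb and 86 and 38 in CTRL (adjusted p = 1).

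**Figure D5:**
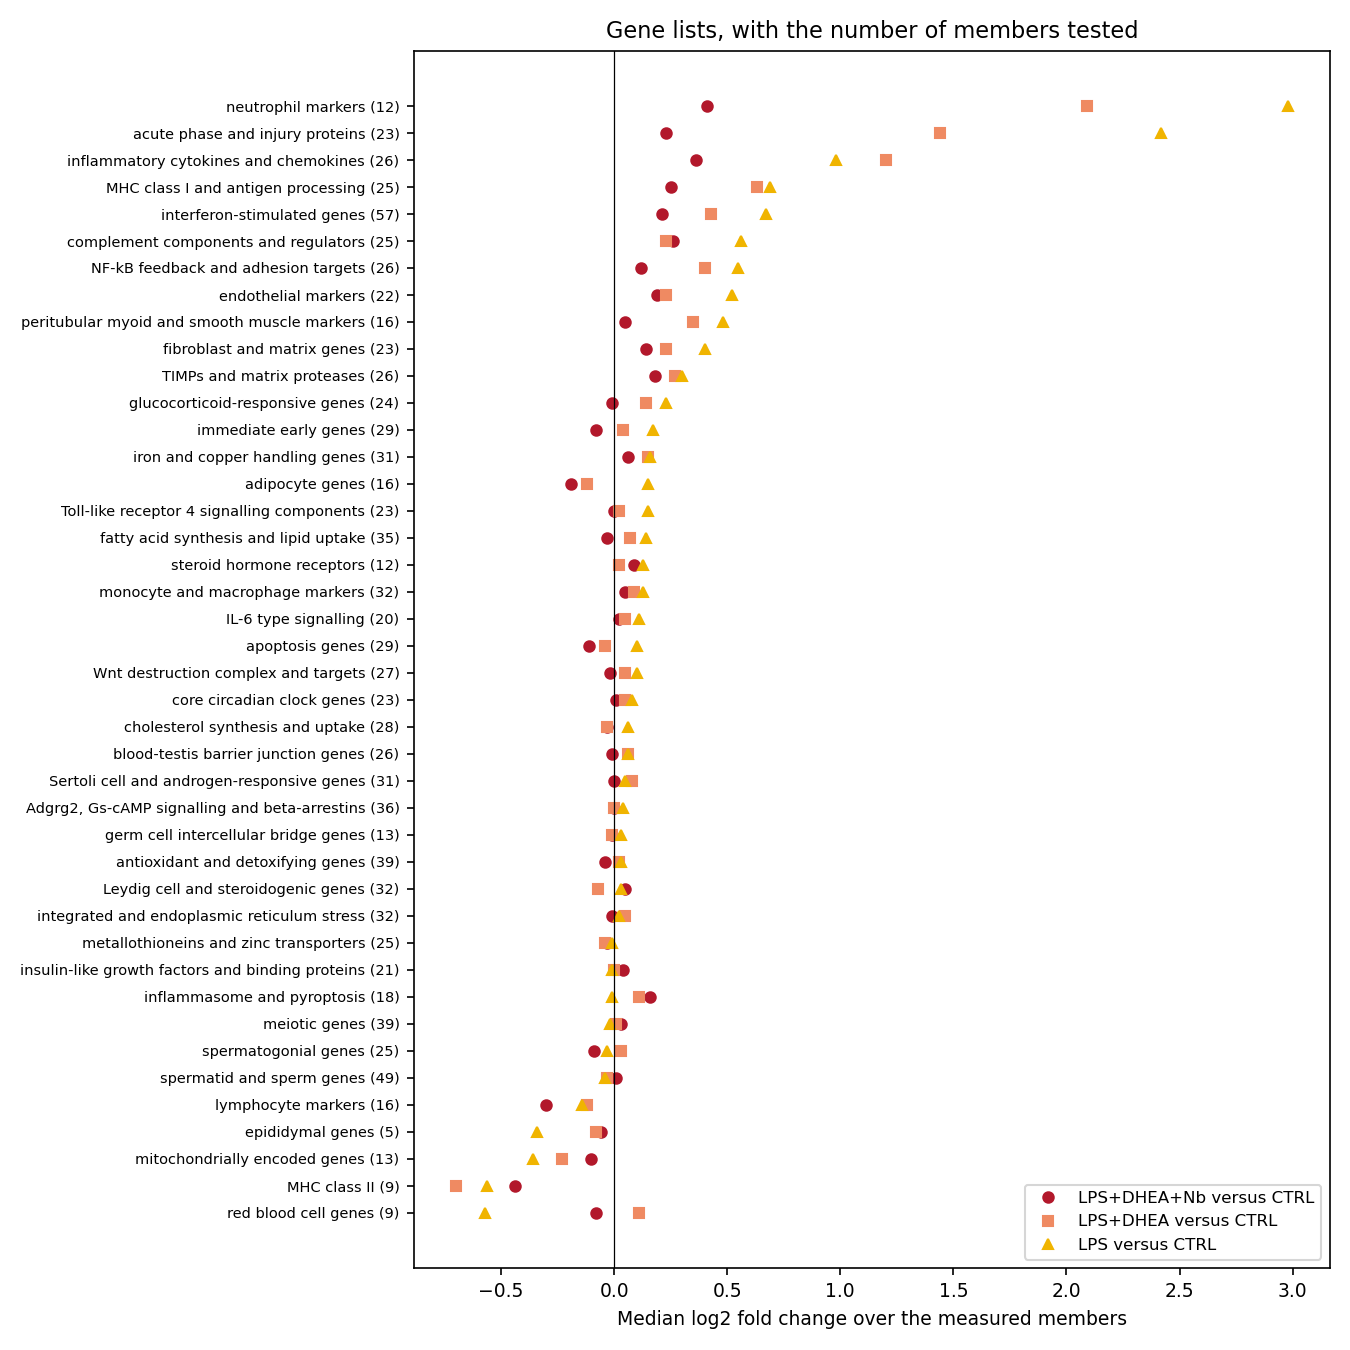
Median log2 fold change over the tested members of 42 gene lists (horizontal axis) in LPS+DHEA+Nb (circles), LPS+DHEA (squares) and LPS (triangles), each against the same 2 CTRL libraries, with genes absent from a group at their bound. For the acute phase list LPS+DHEA+Nb is at 0.23, LPS+DHEA at 1.44 and LPS at 2.42, and for germ cell lists all 3 lie near 0.

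Promoters of 4 inflammatory genes are shown because the genes ended at different levels after both agents: Lcn2 at its CTRL level, Icam1 slightly above it, and Saa3 and Timp1 further above it. The sequences run from 250 bases before to 50 bases after the start site in RefSeq (GRCm38.p6), 5′ to 3′ on the gene's strand: Lcn2 at chr2:32387690-32387989 on the minus strand, Icam1 at chr9:21015690-21015989 on the plus strand, Saa3 at chr7:46715627-46715926 on the minus strand and Timp1 at chrX:20869916-20870215 on the plus strand. Capitals mark matches on either strand to a core of NF-kappa B sites (GGG, any 5 bases, CC) or to TTCNNNGAA, a STAT site. Sites of other forms, such as those without GGG, are not marked, and matches can overlap. The matches are therefore not a count of sites.
Lcn2: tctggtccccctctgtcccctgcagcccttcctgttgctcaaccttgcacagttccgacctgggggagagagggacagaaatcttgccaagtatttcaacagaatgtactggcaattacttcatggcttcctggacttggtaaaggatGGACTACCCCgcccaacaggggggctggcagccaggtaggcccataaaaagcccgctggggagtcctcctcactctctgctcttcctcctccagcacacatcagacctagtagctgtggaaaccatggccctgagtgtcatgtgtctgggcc
Icam1: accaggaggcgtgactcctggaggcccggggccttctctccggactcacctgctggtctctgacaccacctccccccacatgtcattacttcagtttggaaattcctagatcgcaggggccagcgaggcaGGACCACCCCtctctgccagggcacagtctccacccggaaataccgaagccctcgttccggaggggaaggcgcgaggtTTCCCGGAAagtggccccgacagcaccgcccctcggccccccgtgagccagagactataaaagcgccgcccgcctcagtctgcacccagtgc
Saa3: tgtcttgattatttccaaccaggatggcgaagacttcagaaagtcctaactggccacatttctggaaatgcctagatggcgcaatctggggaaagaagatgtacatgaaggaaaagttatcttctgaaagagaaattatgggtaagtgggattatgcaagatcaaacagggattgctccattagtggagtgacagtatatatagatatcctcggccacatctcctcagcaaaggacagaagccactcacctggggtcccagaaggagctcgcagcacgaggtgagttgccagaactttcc
Timp1: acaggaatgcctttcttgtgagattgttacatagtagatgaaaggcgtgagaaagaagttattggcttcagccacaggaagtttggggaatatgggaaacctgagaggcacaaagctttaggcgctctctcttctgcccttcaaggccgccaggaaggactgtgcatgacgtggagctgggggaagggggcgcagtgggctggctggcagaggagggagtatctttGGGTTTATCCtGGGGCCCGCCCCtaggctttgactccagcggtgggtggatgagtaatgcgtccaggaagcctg
Lcn2 held 1 match to the NF-kappa B core, Icam1 1 match to each, Saa3 neither in this window, and Timp1 5 matches to the NF-kappa B core, overlapping and on both strands. Serpina3n, also above CTRL in both libraries, held 4. Matches thus occurred in genes at the CTRL level and above it. Of 32544 promoters of this length, 51% hold the NF-kappa B core and 8.33% hold TTCNNNGAA, so the first is common. The pattern TTGCNNCAA, searched as a C/EBP core and present in 2.09% of promoters, was in none of the 4. Its spacing differs from that of the C/EBP consensus, so C/EBP sites were not tested.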

How the data were processed

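Mouse testis RNA was sequenced in 8 libraries, 2 per group, made with a strand-preserving kit per the labels' protocols. HISAT, featureCounts 1.5.0-p3 and the build GRCm38 are named, without their roles, per the submitters' processing notes; no source used here gives the strand setting or the handling of multiply matching reads. The values the authors deposited are treated here as estimated counts per Ensembl gene, not scaled to library size. They are whole numbers, but 33.5% of values from 1 to 40 are multiples of 4, where 25% would be even. The design had been written for counts, and the same test was used on these whole values. Of 55421 genes, 26414 passed edgeR's filterByExpr (minimum count 10, minimum total 15). Counts were fitted with edgeR 4.0.16 (R 4.3.3; TMM scaling, robust quasi-likelihood, 4 group means over 8 libraries, 4 residual degrees of freedom), and p-values were adjusted by Benjamini-Hochberg over all genes tested. CPM values use TMM-scaled library sizes. The SE is the size of the log2 fold change over the square root of F. DESeq2 1.42.0, limma 3.58.1, other scalings and filters, and leaving out each library were alternatives, and sums over genes with overlapping exons were added after the data were seen. The steps were tested on simulated data. The floor of 3 counts covers counting error only. Named genes are those called, up to 2 members with the smallest p per list, and a set list of LPS response, steroidogenic and signalling genes, with defining cell type markers; members and lists were chosen with earlier results of these data known. Gm39325, Glt8d1, Gm6768 and the genes summed with called genes were named after their values were seen. Exons and positions are from GENCODE M21, promoters from RefSeq.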

Additional observations from a re-analysis of the deposited data

How the results depend on the processing

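In LPS+DHEA+Nb versus CTRL, 4 genes higher and 4 lower became 44 and 30 with DESeq2, 2 and 2 with limma-voom, and 6 and 11 with no filter on low counts; fits with other scalings, a CPM minimum, only the 4 libraries compared, counts divided by 4, summed overlapping genes or a replicate block stayed within 1.5 times. Leaving out 1 library gave 3 to 21 higher and 5 to 21 lower; the lone library left in a group was assumed to vary like the other groups. 1700027A15Rik, Ncoa4 and Apc were called in all 17 alternatives. Beyond the losses without single libraries given above, limma-voom lost Spcs1, Nol8, Gm28036 and Gm6351 (adjusted p 0.0801, 0.0801, 0.128 and 0.982), the fit of the 4 libraries compared lost Spcs1, Nol8, Gm6351 and Gm49380 (0.228, 0.0835, 0.0653 and 0.149), counts divided by 4 lost Gm6351 (0.0665) and no filter lost Gm49380 (0.0875). Saa3 passed with DESeq2 (given above), with only the 4 libraries compared (0.0124) and with counts divided by 4 (0.0473). The cause was not tested. Replicate numbers did not pair the libraries (replicate differences correlated at -0.0326 to 0.0312 between groups), and the replicate block gave 4 higher and 4 lower, with Spcs1 at an adjusted p of 0.0537. Over the fits without 1 library, genes near zero reached 0 or changed sign. The log2 fold change against CTRL ran from 0 to 0.15 for Nupr1l and Rbm44, -0.28 to 0.15 for Lcn2, -0.55 to 0.05 for Cyp11a1, -0.09 to 0.31 for Hsd3b1, -0.44 to 0.21 for Lhcgr, -0.25 to 0.15 for Hsd17b3, -0.56 to 0.09 for Adgrg2, -0.45 to 0.81 for Cd68, -0.66 to 0.17 for Il1b, -0.60 to 5.72 for Tnf and -0.38 to 0.95 for Tlr4. None of these was called. Against LPS, 8 of the 22 named genes called were called in every alternative, and against LPS+DHEA 3 of 14. Il6 and Ly6g had counts too low to pass the filter.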

Other observations

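Among the genes just short of the threshold, chosen after their values were seen, the LPS+DHEA+Nb libraries stood apart from the other 6 for Setd3, Cmtr2 and the predicted genes Gm8011 and Gm43064. Setd3, which methylates a histidine of actin, had 90.6 and 88.1 CPM in LPS+DHEA+Nb, 125.3 and 127.1 in LPS+DHEA, 124 and 114.6 in LPS, and 124.8 and 120.2 in CTRL (log2 fold change against CTRL -0.46, SE 0.07, adjusted p = 0.108 by edgeR). Cmtr2, which methylates the cap of messenger RNA, had 0.126 and 0.379 CPM in LPS+DHEA+Nb, 2.74 and 2.13 in LPS+DHEA, 1.75 and 1.26 in LPS, and 1.81 and 2.24 in CTRL (log2 fold change against CTRL -2.99, SE 0.47, adjusted p = 0.108 by edgeR). Gm8011 had 0.85 and 0.41 CPM in LPS+DHEA+Nb, 2.91 and 3.03 in LPS+DHEA, 4.16 and 2.65 in LPS, and 3.52 and 4.47 in CTRL (adjusted p = 0.0532 by edgeR). Gm43064 had 12.1 and 18.6 CPM in LPS+DHEA+Nb, 7.07 and 7.41 in LPS+DHEA, 5.81 and 6.67 in LPS, and 2.21 and 4.36 in CTRL (adjusted p = 0.11 by edgeR). Setd3, Cmtr2 and Gm8011 were lowest and Gm43064 highest in LPS+DHEA+Nb, and DESeq2 called all 4 against CTRL (adjusted p 0.000174 for Setd3, 1.98e-05 for Cmtr2, 8.36e-08 for Gm8011 and 5.06e-11 for Gm43064). Of the 50-base stretches of Gm8011, 91.7% occur in 38 other genes. The summed counts of this family were 7847 and 7197 in LPS+DHEA+Nb and 7448 and 7352 in CTRL. Gm8011 could thus not be told apart from its copies. Whether Gm43064 shares reads with copies was not tested.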
